A study of Mus musculus with 75 samples.

Results

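The Serpina3 gene cluster is a row of related serpin genes on mouse chromosome 12, and 6 of its genes are described here: Serpina3n, Serpina3f, Serpina3g, Serpina3h, Serpina3i and Serpina3m. They were chosen by symbol, in view of what earlier results of these data showed for them 24 h after endotoxin in the small intestine. Of the 6 symbols, 5 had a row in both deposited tables, which list 21051 and 21076 symbols. Serpina3h, annotated as a transcribed unprocessed pseudogene, had a row in neither table and is not analysed here.

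Serpins are protease inhibitors that trap their target when it cuts an exposed loop, after which both proteins are inactive. Human SERPINA3, the acute-phase protein alpha-1-antichymotrypsin, has a single gene where the mouse has many copies. Serpina3n is a secreted inhibitor of leukocyte proteases such as elastase and granzyme B, and it is widely used as a marker of reactive astrocytes, the glia of the brain, after systemic endotoxin. Serpina3g (also called Spi2A) acts inside cells and inhibits lysosomal cathepsins. Transcription of acute-phase serpins is known to respond to interleukin-6 through STAT3, and that of Serpina3g also to interferon-gamma.

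The samples are labelled as enteric glial cells (EGC), the glia of the gut wall, from mice that all carry a reporter in which a glial promoter drives eGFP, a green fluorescent protein. The series has 75 libraries in 3 experiments. Untreated reporter mice gave 5 colon and 6 small-intestinal libraries from each of the myenteric plexus (MP, the ganglia between the muscle layers) and the submucosal plexus (SMP, those below the mucosa). Further reporter mice received 1 intraperitoneal injection of LPS (lipopolysaccharide of E. coli O111:B4, 2 mg/kg) or of PBS (phosphate-buffered saline), and myenteric samples were taken at 2 h, with 4 libraries per region and treatment. The 24 h samples were also myenteric, and the mice were Gpr37WT (wild type) or Gpr37-/- (knockout), both with the reporter. Gpr37 is an orphan receptor, coupled to G proteins, that glia express. Wild-type small intestine was sampled in 6 libraries after PBS and 4 after LPS, and wild-type colon in 4 and 5. For knockouts the numbers after PBS and after LPS were 4 and 5 in the small intestine and 5 and 4 in the colon. How the glia were isolated, and the age of the mice, are not given in the sources used here. The labels number the mice at 24 h, and 15 of them gave both regions. They name no animal at 2 h or without treatment, so p-values there measure the spread between samples, which may be technical in part.

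Library totals ran from 2547296 to 9002546 counts without treatment, from 1990744 to 7883251 at 2 h and from 2882539 to 33283346 at 24 h. The targeted gene was checked first. Of 18 knockout libraries 17 held 3 or fewer Gpr37 counts (18 counts in all), and so did 4 of 19 libraries labelled wild type (1229 counts in all). Mouse 3, labelled wild type, was low in both regions, with 0 and 2 counts, which goes against its label. Mitochondrial counts at 24 h made up a median of 15.4% in 12 libraries from mice numbered 10 and below and of 4.57% in 25 from mice numbered 11 and above. The division is of mouse numbers, not of a stated batch. Fitted values within mice numbered 11 and above are given beside a difference at 24 h where they move it by over 1.5 times or lose a call. Against a group with no count no fitted size is given. The 6 glial markers (Sox10, S100b, Gfap, Foxd3, Erbb3 and Cdh19) were detected in every group, with group medians of their summed level from 606 to 1951 CPM in myenteric groups, and lower, at 220.3 and 272 CPM, in the submucosal groups of colon and small intestine. CPM is the usual depth-scaled count, here per effective size of the library. In bulk samples like these, fewer cells of a type and less RNA per cell cannot be told apart.

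On GRCm38, the build named in the submitters' processing notes, the cluster spans 301.6 kb of chromosome 12 from 104112724 to 104414329 in the GENCODE annotation, with 14 genes, of which 10 are protein-coding and 4 are pseudogenes. All 6 members lie on the + strand. Serpina3f (104214544 to 104221129), Serpina3g (104236245 to 104241939), Serpina3h (104247905 to 104253669) and Serpina3i (104263122 to 104269372) follow one another in the middle. Serpina3m (104338486 to 104394257) shares its annotated start with Serpina3k (104338486 to 104346144), and Serpina3n (104406729 to 104414329) closes the row. The neighbours in the middle are near copies: aligned transcripts of Serpina3f were 88.5% identical to Serpina3g and 88.1% to Serpina3i, and Serpina3h and Serpina3i were 90.9% identical. Serpina3n stood further off from these 4, at 79.4% (Serpina3f) to 84.2% (Serpina3h) identity, and was 81.8% identical to Serpina3m. Serpina3m and Serpina3k, which is not a member, were 90.9% identical.

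How the authors' counting treated reads that fit several copies is not given in the sources used here, so each count below may hold reads of another copy. As a measure of how far that could go, every stretch of 50 bases of a member's longest transcript was looked up, on both strands, in the annotated transcripts of all other genes. Of these stretches, 6.9% of Serpina3n, 10.7% of Serpina3f, 16.0% of Serpina3g, 24.4% of Serpina3h, 15.4% of Serpina3i and 19.1% of Serpina3m were found in another gene. With 100 bases the shares were 0.2%, 3.6%, 4.6%, 4.2%, 2.3% and 6.1% in the same order. Serpina3n was thus the member with the smallest share of such stretches and Serpina3h, which has no row, the one with the largest share at 50 bases. The longest run common to Serpina3f and Serpina3i is 132 bases of coding sequence, shown because any read inside it fits both genes:
Serpina3f and Serpina3i: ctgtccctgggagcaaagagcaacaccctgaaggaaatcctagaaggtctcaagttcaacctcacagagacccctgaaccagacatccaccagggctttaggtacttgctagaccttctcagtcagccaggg

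To set their promoters side by side, the 250 bases before each RefSeq gene start (GRCm38.p6) were searched on both strands for 4 short motifs. The promoter table held 4 of the 6 members. The motifs were TTCNNNGAA (STAT), TTGCNNAA (C/EBP), GGG followed by any 2 bases and TTTCC (NF-kB), and GAAA followed by any 2 bases and GAAA (interferon response), and their letters were chosen after these sequences had been seen. Matches are in capitals, the sequences are RefSeq's, and no 2 matches overlap:
Serpina3n (chr12:104406458-104406707, + strand): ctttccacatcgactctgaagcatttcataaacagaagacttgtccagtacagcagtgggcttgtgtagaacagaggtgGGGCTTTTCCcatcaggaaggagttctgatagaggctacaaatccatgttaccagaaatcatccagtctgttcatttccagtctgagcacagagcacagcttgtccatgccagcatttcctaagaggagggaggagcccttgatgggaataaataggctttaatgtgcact
Serpina3f (chr12:104214294-104214543, + strand): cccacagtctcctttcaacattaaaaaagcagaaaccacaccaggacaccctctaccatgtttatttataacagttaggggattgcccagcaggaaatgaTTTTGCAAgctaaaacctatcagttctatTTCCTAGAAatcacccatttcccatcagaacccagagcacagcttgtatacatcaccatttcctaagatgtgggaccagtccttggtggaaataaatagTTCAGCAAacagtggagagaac
Serpina3g (chr12:104235897-104236146, + strand): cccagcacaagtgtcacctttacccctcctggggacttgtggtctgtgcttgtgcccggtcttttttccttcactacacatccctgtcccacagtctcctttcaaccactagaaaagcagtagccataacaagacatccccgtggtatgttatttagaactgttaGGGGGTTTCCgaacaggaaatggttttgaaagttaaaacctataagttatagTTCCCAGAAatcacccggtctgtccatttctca
Serpina3i (chr12:104262872-104263121, + strand): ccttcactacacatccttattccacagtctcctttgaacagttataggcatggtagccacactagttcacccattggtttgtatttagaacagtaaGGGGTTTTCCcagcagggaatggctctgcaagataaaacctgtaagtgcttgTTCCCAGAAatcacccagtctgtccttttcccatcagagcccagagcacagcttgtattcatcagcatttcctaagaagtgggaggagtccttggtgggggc
The STAT letters begin 121 bases before the printed start in Serpina3f, 33 in Serpina3g and 102 in Serpina3i, and 7.02% of all 32851 windows of the same length hold them. The NF-kB letters begin 171 bases before the start in Serpina3n, 85 in Serpina3g and 154 in Serpina3i, and 1.41% of windows hold them. Only the Serpina3f window among these 4 had the C/EBP letters, on the reverse strand at 150 and 22 bases before the start (9.56% of windows), and none had the interferon response letters (2.98%). RefSeq also gives Serpina3f a start further downstream, whose window (104214383 to 104214632) overlaps the printed one and holds the same matches, with the STAT letters 210 and the C/EBP letters 239 and 111 bases before that start. A match describes letters and is not evidence of binding. No binding was measured in this series.

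At 24 h after LPS every member with a row was at a higher mean level than after PBS in both regions and both genotypes. The small-intestinal comparisons are the ones in which the members had been noticed, so they are described without a test. There the authors' counts gave Serpina3n 21.6, 22.4, 80.8, 42.0, 26.0 and 24.5 CPM in the 6 wild-type PBS libraries and 1129, 827, 1216 and 1751 CPM in the 4 LPS libraries. In knockout small intestine it stood at 70.5, 36.0, 23.0 and 73.0 CPM after PBS and at 512, 1398, 782, 994 and 1198 CPM after LPS. The lowest LPS library was thus far above the highest PBS library in either genotype. The fitted difference was 5.09 ± 0.55 (SE) on the log2 scale in wild types (means 1231 ± 385 against 36.2 ± 23.1 CPM, SD) and 4.27 ± 0.62 in knockouts (977 ± 347 against 50.6 ± 25.0 CPM), and 5.34 and 4.65 within mice numbered 11 and above. Over all 14903 genes tested, 7.17% were called in wild-type small intestine and 0.718% in knockout small intestine at an adjusted p under 0.05, and 6.21% and 3.09% had every LPS library above every PBS library. No share of the members is read against these, because the choice of members used these comparisons.

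Serpina3f went from next to nothing to 169 CPM or more in small-intestinal libraries labelled wild type. There 5 PBS libraries held no count and that of mouse 19 held 2 counts (0.141 CPM), while the LPS libraries of mice 3, 8, 16 and 13 stood at 391, 481, 169 and 181 CPM. With 9375 counts against 2, the pooled ratio per effective library size was 9393 with a binomial 95% counting interval of 2600 to 77573. That interval covers the counting of reads only, not amplified copies or the spread between mice. The fitted difference, which rests on those 2 PBS counts, was 12.7 on the log2 scale and 11.8 within mice numbered 11 and above. Without mouse 19 no PBS library held a count, and Serpina3f was at least 4774-fold higher after LPS. Knockout small intestine gave 0, 1.52, 0.0311 and 0.661 CPM after PBS and 6.42, 40.2, 76.6, 85.1 and 14.9 CPM after LPS, a difference of 6.39 ± 1.47 on the log2 scale (5.51 within mice numbered 11 and above, and 8.07 without the PBS library of mouse 15). LPS libraries lay above all PBS libraries in both genotypes, but the level reached was lower in every knockout library than in every library labelled wild type (1.6% of genes, a share that is not read against a member because the choice used these libraries).

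The other 3 members also had higher means after LPS. Serpina3m had counts in 1 of 6 wild-type PBS libraries (mouse 23, 0.887 CPM) and stood at 83.6, 38.4, 67.6 and 185 CPM after LPS (9.24 ± 1.97 on the log2 scale). In knockouts it was at 7.03 CPM in the PBS library of mouse 12, at 0 in the other 3, and at 13.4, 142, 186, 82.2 and 96.1 CPM after LPS (5.91 ± 1.92, and 6.57 with sex as a covariate). Without mouse 23 or mouse 12 the PBS groups held no Serpina3m count. Among the libraries left the gene was at least 1352-fold higher after LPS in wild types and at least 1452-fold higher in knockouts. These bounds are set against 3 counts over the PBS group. With all libraries, pooled levels (summed counts per summed effective size) after LPS and PBS were 80.2 and 0.134 CPM in wild types. In knockouts they were 84.6 and 1.15 CPM. For Serpina3i, wild-type PBS libraries did not pass 1.09 CPM, and the LPS libraries lay close together at 27.7, 26.1, 34.6 and 26.8 CPM (6.80 ± 1.5, and 8.03 without the PBS library of mouse 22). Serpina3i in knockouts after LPS stood at 0, 13.2, 5.01, 27.3 and 10.2 CPM, so that the groups overlapped at the library of mouse 11 (4.75 ± 1.60). That difference was 3.98 within mice numbered 11 and above, 4.11 without the LPS library of mouse 6 and 5.69 without the PBS library of mouse 15. Serpina3g had counts in 5 of the 6 wild-type PBS libraries, at up to 3.22 CPM, and at 38.0 CPM in that of mouse 23. After LPS it stood at 19.5, 65.1, 41.4 and 99.5 CPM in wild types (2.79 ± 1.15, groups overlapping, and 4.73 without mouse 23). In knockouts Serpina3g stood at 2.18, 6.26, 1.52 and 0 CPM after PBS and at 7.70, 76.7, 70.1, 40.8 and 43.6 CPM after LPS (4.24 ± 1.41, and 5.30 without mouse 15), with no overlap.

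**Figure D1:**
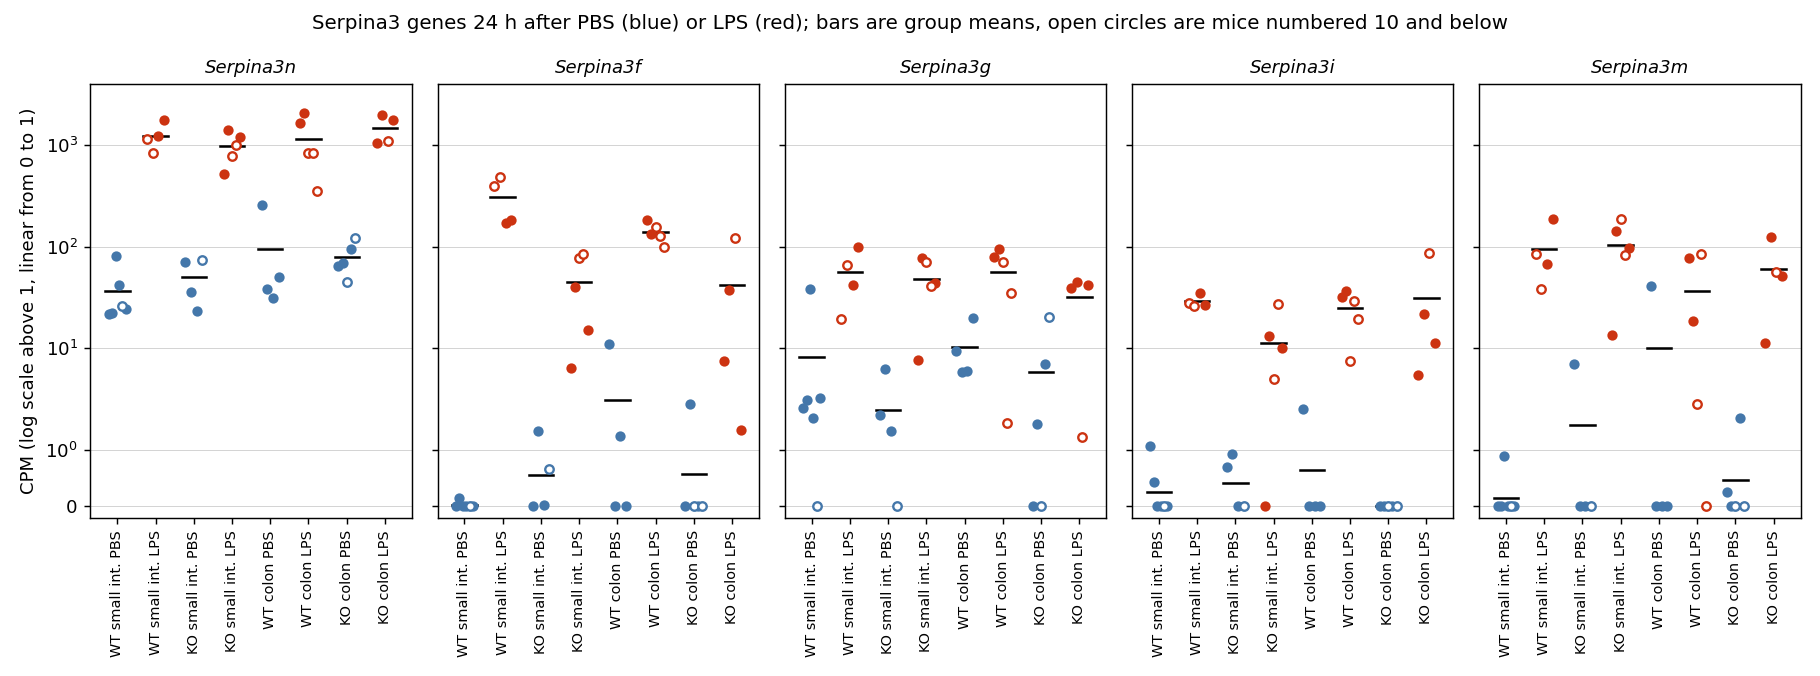
Level of 5 Serpina3 genes in each 24 h library, as CPM on an axis that is logarithmic above 1 and linear from 0 to 1. Points are libraries (blue PBS, red LPS, open for mice numbered 10 and below) and bars are group means; in Serpina3n the LPS libraries, at 353 to 2042 CPM, lie above all PBS libraries, whose highest is 256 CPM.

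LPS and PBS were then compared in the colon, in libraries other than those in which the members had been noticed. They come partly from the same mice, and the members were chosen with earlier results of these data known. In wild-type colon 3 of the 5 members were called higher at an adjusted p under 0.05 over all genes, where 7.96% of genes were called in either direction and 3.96% higher. Knockout colon also gave 3 of 5 called higher, against 0.718% called in either direction and 0.637% higher. The 3 were Serpina3n, Serpina3f and Serpina3i in both genotypes. All 5 members passed the filter on low counts, which looks at all 24 h groups, whereas in a fit of the PBS groups of either genotype alone only 2 did. Members that pass through the LPS groups had to be higher there, so these counts and medians are descriptions of the members and not support. The median difference over the 5 members was 3.61 in wild types and 5.92 in knockouts on the log2 scale, beside -0.03 and -0.07 over all genes tested. Markers of other cells differed between the same groups. The summed level of 5 fibroblast markers (Col1a1, Col3a1, Pdgfra, Dcn and Lum) ran from 13545 to 21763 CPM after PBS and from 659 to 8597 CPM after LPS in wild-type colon, every LPS library being below every PBS library (9.13% of genes), and 2 of the 5 were called lower (4% of genes). In knockout colon it ran from 2670 to 16253 CPM and from 1394 to 15145 CPM, with none called. The median sum of 4 smooth muscle markers was 2380 CPM after PBS and 638 CPM after LPS in wild-type colon and 1919 and 2311 CPM in knockout colon, with none called. The part of these cells in the Serpina3 levels was not tested. All adjusted p-values are from the quasi-likelihood test of edgeR, adjusted over all genes tested by the method of Benjamini and Hochberg.

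Serpina3n in wild-type colon stood at 256, 38.4, 30.8 and 50.3 CPM after PBS (mice 14, 19, 22 and 24) and at 1657, 2042, 838, 833 and 353 CPM after LPS (mice 13, 16, 3, 5 and 8). Every LPS library lay above every PBS library, as for 4.35% of all genes, and the closest pair was mouse 8 with LPS and mouse 14 with PBS. The difference was 3.61 ± 0.60 on the log2 scale (adjusted p = 0.000302), and it was 4.32 ± 0.70 (adjusted p = 0.000624) within mice numbered 11 and above. Leaving out the 4 libraries with 3 or fewer Gpr37 counts gave 4.33, and leaving out mouse 14 gave 4.89 (adjusted p = 0.000322 and 8.84e-06). In knockout colon Serpina3n stood at 63.9, 69.3, 44.4, 93.7 and 122 CPM after PBS and at 1035, 1944, 1087 and 1773 CPM after LPS, with no overlap (2.07% of genes). The difference there was 4.21 ± 0.57 (adjusted p = 6.82e-05), and 4.41 ± 0.76 within mice numbered 11 and above.

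Serpina3f in wild-type colon was at 11.0, 0, 1.37 and 0 CPM after PBS, the first being mouse 14, and at 184, 131, 156, 126 and 99.8 CPM after LPS. The 5 LPS libraries lay close together and all above the PBS libraries. The difference was 5.52 ± 1.36 (adjusted p = 0.0110), 7.97 without mouse 14 and 5.74 (adjusted p = 0.0146) within mice numbered 11 and above, and the call was lost when the fit held the compared groups alone (adjusted p = 0.0548). In knockout colon Serpina3f was at 0 in 4 PBS libraries and at 2.85 CPM in that of mouse 15, and it was at 7.49, 37.1, 121 and 1.57 CPM after LPS. These libraries overlapped, since mouse 21 with LPS lay below mouse 15 with PBS. The call in knockout colon (5.92 ± 1.32, adjusted p = 0.0210) was lost without mouse 2, the LPS library at 121 CPM (4.47, adjusted p = 0.170), within mice numbered 11 and above (3.85, adjusted p = 0.295) and with the compared groups alone (6.07, adjusted p = 0.366). It was also lost without any 1 of the 4 PBS libraries at 0, mice 12, 1, 20 and 7 (adjusted p from 0.0539 to 0.0617). Without mouse 15 no PBS library held a count, and among the libraries left Serpina3f was at least 265-fold higher (adjusted p = 0.00814). With all libraries the pooled levels were 25.5 CPM after LPS and 0.755 CPM after PBS.

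Serpina3i in wild-type colon was at 0 in 3 PBS libraries and at 2.54 CPM in that of mouse 14, and at 32.04, 36.9, 7.55, 29.1 and 19.2 CPM after LPS. The difference of 5.35 ± 1.64 (adjusted p = 0.0414) was close to the threshold. Leaving out the LPS library of mouse 13 or mouse 16, or the PBS library of mouse 19, 22 or 24, lost the call (adjusted p from 0.0520 to 0.112), as did leaving out the 4 libraries with low Gpr37 counts (adjusted p = 0.0939), the mouse number division as a covariate (0.0578) and the compared groups alone (0.0993). With mouse 14 left out the remaining PBS libraries held no count, and Serpina3i was at least 420-fold higher after LPS (adjusted p = 0.00666). With all libraries the pooled levels were 26.4 CPM after LPS and 0.376 CPM after PBS. In knockout colon all 5 PBS libraries were at 0, against 5.40, 21.5, 86.1 and 11.3 CPM after LPS, at least 283-fold higher (adjusted p = 0.00916), and at least 151-fold higher without mouse 2 (adjusted p = 0.0442). That call was lost within mice numbered 11 and above (adjusted p = 0.141) and with the compared groups alone (0.114). Bounds are set against 3 counts over the PBS group.

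Neither Serpina3g nor Serpina3m passed in the colon of either genotype. Serpina3g stood at 9.45, 5.79, 5.97 and 19.7 CPM after PBS and at 78.6, 93.6, 70.8, 1.82 and 35.0 CPM after LPS in wild types, the low one being mouse 5 (2.45 ± 1.29, adjusted p = 0.234, 3.10, adjusted p = 0.0659, within mice numbered 11 and above, and 3.11 without the low-Gpr37 libraries). In knockouts it stood at 0, 1.78, 0, 7.04 and 20.3 CPM after PBS and at 39.4, 44.8, 1.34 and 41.9 CPM after LPS, the low one being mouse 2 (2.47 ± 1.23, adjusted p = 0.413, 3.71, adjusted p = 0.167, within mice numbered 11 and above, and 3.74 without mouse 7). Mouse 2 thus had the lowest Serpina3g and the highest Serpina3f and Serpina3i of its group. Serpina3m in wild types was at 0 in 3 PBS libraries and at 40.5 CPM in that of mouse 14, and at 77.5, 18.7, 2.83, 85.0 and 0 CPM after LPS (1.87 ± 1.56, adjusted p = 0.490). Without mouse 14 the PBS libraries held no Serpina3m count, and among the libraries left the gene was at least 490-fold higher after LPS (adjusted p = 0.0142). With all libraries the pooled levels were 30.9 CPM after LPS and 5.97 CPM after PBS. In knockouts it was at 0 to 2.05 CPM after PBS and at 11.1, 123, 56.6 and 51.7 CPM after LPS, without overlap (6.72 ± 1.87, adjusted p = 0.0889, and 6.10, adjusted p = 0.250, within mice numbered 11 and above). Of the 31 Serpina3m counts in these PBS libraries 30 were in that of mouse 20, without which the fitted difference was 10.2 (adjusted p = 0.0636) and rested on the 1 count left.

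**Figure D2:**
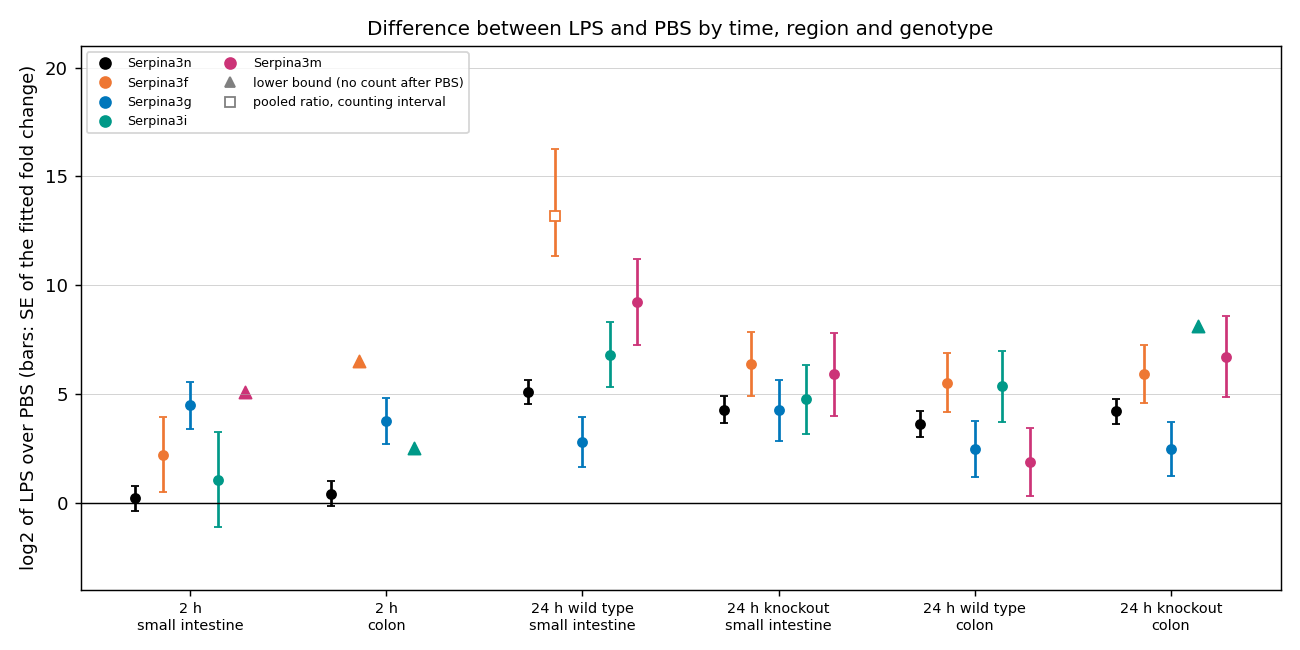
Difference between LPS and PBS for each gene, as log2 of the ratio, by time, region and genotype. Circles are fitted values with their SE, triangles are lower bounds where no PBS library held a count, and the open square is a pooled ratio with its counting interval; Serpina3n lies near 0 at 2 h and between 3.61 and 5.09 at 24 h.

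The PBS colon library of mouse 14 stood apart in 4 members at once, with Serpina3n at 256, Serpina3f at 11.0, Serpina3i at 2.54 and Serpina3m at 40.5 CPM, while its small intestine had 24.5 CPM of Serpina3n and no Serpina3f or Serpina3m count. The summed level of 6 neutrophil markers (S100a8, S100a9, Retnlg, Ngp, Ly6g and Csf3r) was 144 CPM in that library and 0.0965 to 1.62 CPM in the other 3 wild-type PBS colon libraries. Their part in the Serpina3 levels was not tested.

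Levels of different genes are compared per length, as mean CPM per kb of exon. In wild-type small intestine after LPS, Serpina3n led with 596 CPM per kb, followed by Serpina3f at 133, Serpina3m at 54.5, Serpina3g at 26.8 and Serpina3i at 12.95. In knockout small intestine Serpina3m, at 60.4, came before Serpina3g at 22.7, Serpina3f at 19.5 and Serpina3i at 5.0, with Serpina3n at 473 CPM per kb. As a mean over libraries, Serpina3n made up 70.9% of the members' counts in wild-type small intestine after LPS, the lowest share of the 24 h groups, and 94.0% in knockout colon after PBS, the highest. With the counts of the 5 members that have a row added up, the mean in wild-type small intestine was 1715 ± 363 CPM after LPS and 44.8 ± 37.4 CPM after PBS, a ratio of 38.3, or 57.6 without the PBS library of mouse 23. The ratio of summed means was 21.2 in knockout small intestine, 11.9 in wild-type colon (27.6 without the PBS library of mouse 14) and 19.0 in knockout colon, with no overlap of libraries in any of the 4.

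Of the 5 protein-coding Serpina3 genes outside the member list, Serpina3c and Serpina3k were detected well enough to be tested at 24 h, and neither was called in the colon. Serpina3c stood at 0 to 10.8 CPM after PBS and 26.8 to 59.2 CPM after LPS in wild-type colon, with no overlap (3.14 ± 1.38 on the log2 scale, adjusted p = 0.150), and at 0 to 15.1 CPM and 5.09 to 67.2 CPM in knockout colon, with overlap (2.79 ± 1.29, adjusted p = 0.368). In wild-type small intestine Serpina3c ran from 0.268 to 16.9 CPM after PBS and from 28.2 to 65.1 CPM after LPS, and in knockouts from 0 to 5.08 CPM and from 1.93 to 24.9 CPM. Serpina3k, whose annotated start Serpina3m shares, was at 0 in all wild-type and knockout PBS libraries of the small intestine and averaged 16.8 ± 9.28 and 35.9 ± 48.2 CPM after LPS. In wild-type colon its mean was lower after LPS, at 0.455 CPM, than after PBS, at 2.03 CPM. Knockout colon had means of 3.89 CPM after LPS and 0 CPM after PBS. Because Serpina3m and Serpina3k share an annotated start and long runs of sequence, their counts may not be separable.

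Genotype was compared next, which asks whether the response depends on Gpr37. No member was called between knockout and wild type after PBS in either region or after LPS in the colon, nor in the interaction of genotype and treatment in the colon. In the small intestine the LPS libraries are those in which the members had been noticed, so the genotype values there are given without a test. The test called 0 genes after PBS in either region and in both interactions (256, 629, 578 and 2009 genes had an unadjusted p under 0.05, and DESeq2 called 57, 76, 59 and 350), and 2 and 64 genes (0.0134% and 0.429%) after LPS in small intestine and colon. After LPS, Serpina3n differed between knockout and wild type by -0.33 ± 0.52 (log2, small intestine) and 0.35 ± 0.52 (colon). Without the 4 low-Gpr37 libraries the colon value was -0.36, and within mice numbered 11 and above -0.24. The groups overlapped widely in both regions, at 512 to 1398 CPM against 827 to 1751 CPM in the small intestine.

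Serpina3f was the member with the largest genotype difference after LPS. In the small intestine the 5 knockout libraries, at 6.42 to 85.1 CPM, all lay below the 4 libraries labelled wild type, at 169 to 481 CPM. Knockouts did so for 1.6% of genes, a share not read against Serpina3f because the choice used these libraries. The difference was -2.78 ± 1.10 on the log2 scale. It was -2.63 without mouse 3 and -3.11 ± 1.45 within mice numbered 11 and above. By mouse number, wild types stood at 391 and 481 CPM and knockouts at 76.6 and 85.1 CPM in mice numbered 10 and below. In the others they stood at 169 and 181 CPM and at 6.42, 40.2 and 14.9 CPM. The choice of members used these libraries, so the order is a description and not support. In the colon the means were 41.8 ± 55.0 CPM in knockouts and 139.5 ± 32 CPM in wild types, with overlap through mouse 2 (-1.75 ± 1.12, adjusted p = 0.435; -3.19 without that library, and -3.38, adjusted p = 0.244, within mice numbered 11 and above). The knockout-minus-wild-type values of Serpina3i, Serpina3g and Serpina3m after LPS lay between -1.38 and 0.72 in both regions, and between -1.98 and 0.37 within mice numbered 11 and above.

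Some neutrophil markers were called higher after LPS. Of the 6 markers, 4, 2, 1 and 1 were called higher in wild-type small intestine, wild-type colon, knockout small intestine and knockout colon, where 4.18%, 3.96%, 0.53% and 0.637% of all genes tested were. Their summed level after LPS ran from 7.41 to 822 CPM in wild-type and from 7.74 to 1714 CPM in knockout small intestine, and from 9.32 to 2315 CPM in wild-type and from 2.09 to 480 CPM in knockout colon. After PBS the sums reached at most 3.61 CPM in wild-type and 0.693 CPM in knockout small intestine, but 144 CPM in wild-type and 59.9 CPM in knockout colon, so that the sums overlapped between treatments in the colon. The 3 hepatocyte markers (Alb, Apoa1 and Ttr) summed to 0.714 to 25.7 CPM after PBS and 2.59 to 15.1 CPM after LPS in wild-type small intestine, where Alb was at 0 in every library. Their highest sum at 24 h was 281 CPM, in a PBS library of knockout colon. The fibroblast sum in the small intestine had medians of 7069 CPM after PBS and 3377 CPM after LPS in wild types, with 2 of 5 markers called lower (2.99% of genes), and of 8170 and 2290 CPM in knockouts, with none called. The sum of 4 mesothelial markers (Msln, Upk3b, Wt1 and Krt19) ran from 530 to 2483 CPM after PBS and from 216 to 375 CPM after LPS in wild-type small intestine, without overlap (7.21% of genes), and had medians of 1927 and 783 CPM in knockouts, with none of the 4 called in either. For smooth muscle the medians were 2166 and 852 CPM in wild types and 2195 and 724 CPM in knockouts, again with none called. The part of these cells in the Serpina3 levels was not tested.

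**Figure D3:**
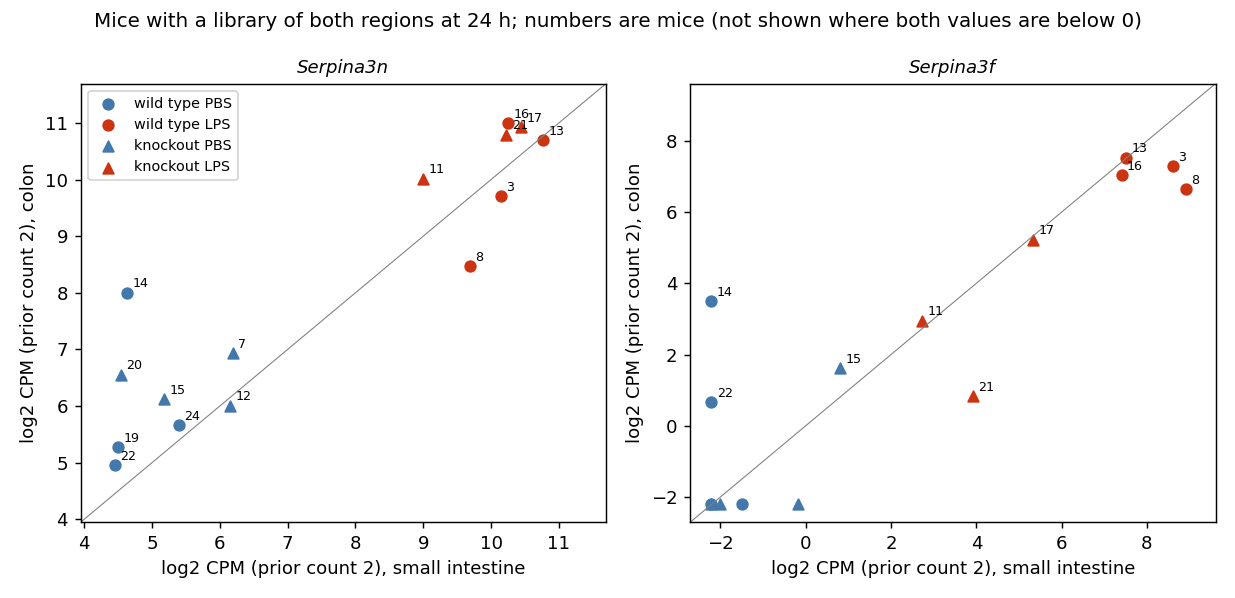
Log2 CPM (prior count 2) of Serpina3n and Serpina3f in the colon against the small intestine of the 15 mice with both regions at 24 h, with a line of equal levels. Blue is PBS, red is LPS, circles are labelled wild type and triangles knockout; mouse 14 (PBS) lies above the line in both genes, and the Serpina3f levels of knockout mice with LPS lie below those of the wild types in both regions.

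Colon and small intestine were then compared, within treatment and with the mice that gave both. After LPS no member was called between regions at 24 h: Serpina3n by -0.10 ± 0.52 in wild types (0.55 without the 4 low-Gpr37 libraries) and 0.58 ± 0.52 in knockouts (colon minus small intestine, log2), and Serpina3f by -1.13 ± 1.06 (-0.15 within mice numbered 11 and above) and -0.10 ± 1.07 (-1.54 without the colon library of mouse 2, and -0.90 with the mouse as a block). Between 0.0738% and 0.262% of genes were called in these comparisons. After PBS in wild types the colon values were higher for Serpina3n (1.37 ± 0.50, adjusted p = 0.446), Serpina3f (6.05 ± 1.61, adjusted p = 0.205) and Serpina3m (6.02 ± 1.83, adjusted p = 0.350), none of which passed (0.141% of genes called). Mouse 14 carried much of these values: without its colon library the Serpina3n mean was 39.8 CPM, that of Serpina3f 0.457 CPM and that of Serpina3m 0 CPM. With the mouse as a block, no call of a member changed. Over the 15 mice with both regions, deviations of Serpina3n from the group means gave Pearson's r = 0.31 (permutation p = 0.199) and Spearman's rho = 0.42 (p = 0.106) between regions, by enumeration of 82944 pairings within groups. The r was 0.34 without the 2 mice farthest from the median and 0.18 in the 12 mice numbered 11 and above. None of the 5 members passed (adjusted p from 0.385 to 0.701 for r and from 0.360 to 0.541 for rho).

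LPS and PBS were compared in the same way at 2 h. Serpina3n was at 34.7, 156, 31.7 and 43.5 CPM after PBS and at 66.0, 97.3, 103 and 37.3 CPM after LPS in the small intestine, with overlap (0.20 ± 0.57 on the log2 scale, adjusted p = 1, and 1.05 without the PBS library at 156 CPM). The colon gave 61.3, 26.2, 23.3 and 108 CPM after PBS and 42.1, 67.1, 75.6 and 110 CPM after LPS, again with overlap (0.42 ± 0.57, adjusted p = 1, and 1.01 without the PBS library at 108 CPM). No member was called at 2 h, where edgeR called 1.1% of 13107 genes for the small intestine and 0.778% for the colon. The test had 681 and 987 genes at an unadjusted p under 0.05.

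Serpina3g separated the treatments at 2 h without passing the adjusted threshold. In the small intestine it stood at 0, 0, 2.01 and 1.32 CPM after PBS and at 34.2, 15.1, 26.3 and 6.36 CPM after LPS. In the colon it stood at 0.233, 3.06, 6.00 and 4.37 CPM after PBS and at 64.7, 40.1, 56.3 and 24.1 CPM after LPS. Every LPS library lay above every PBS library in both regions, as for 3.44% and 2.25% of genes. With the 2 h PBS groups alone only 1 member passes the filter on low counts, so a sparse member such as Serpina3g is tested through the LPS groups, and its separation is a description. The differences were 4.47 ± 1.09 (adjusted p = 0.0648, and 5.19 without PBS replicate 3) and 3.76 ± 1.04 (adjusted p = 0.183) by edgeR. DESeq2, with Benjamini-Hochberg adjustment, called both (4.50, adjusted p = 5.59e-05, and 3.77, adjusted p = 0.000661).

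The remaining members were sparse at 2 h. Serpina3f was at 0, 10.2, 0 and 1.44 CPM after PBS and at 20.2, 9.25, 14.2 and 8.61 CPM after LPS in the small intestine, overlapping through 1 PBS library (2.21 ± 1.74, adjusted p = 1, and 4.62 without that library, 3.12 with sex as a covariate and 3.91 with a replicate block). In the colon no PBS library held a Serpina3f count, and LPS libraries stood at 0, 43.1, 26.7 and 2.22 CPM, at least 90.2-fold higher (adjusted p = 0.212 by edgeR, 0.00189 by DESeq2). The treatment-by-region term for Serpina3f did not pass, and its size is not given because a group held no count (adjusted p = 1 by edgeR, where 0 genes passed, 452 had an unadjusted p under 0.05 and DESeq2 called 57). Serpina3i did not exceed 7.39 CPM in any 2 h library, and its only colon library with counts was 1 of the LPS group. Serpina3m, which did not pass the filter on low counts, had counts in 2 small-intestinal LPS libraries (18.1 and 6.62 CPM) and in no other 2 h library. As a mean over libraries, Serpina3n made up 92.8% of the members' counts after PBS and 63.3% after LPS in the small intestine, and 91.2% and 52.6% in the colon.

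**Figure D4:**
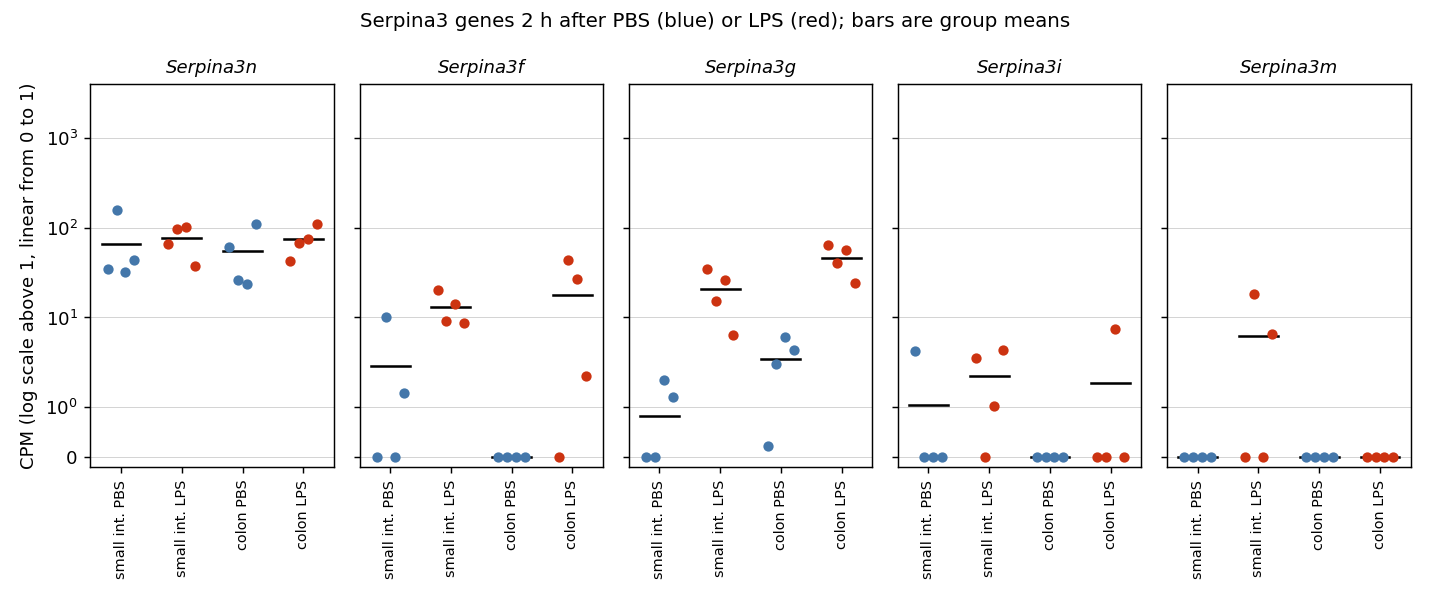
Level of 5 Serpina3 genes in each 2 h library, as CPM on an axis that is logarithmic above 1 and linear from 0 to 1. Points are libraries (blue PBS, red LPS) and bars are group means; the Serpina3g points of LPS libraries, at 6.36 to 64.7 CPM, lie above those of PBS libraries, at 0 to 6.00 CPM, within each region.

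In untreated mice some members differed between the plexuses. Serpina3n in the colon stood at 128, 151, 89.0, 128 and 113 CPM in the submucosal plexus and at 38.9, 57.1, 34.6, 37.8 and 19.8 CPM in the myenteric plexus, with no overlap (5.46% of genes). The difference was 1.70 ± 0.44 on the log2 scale (adjusted p = 0.00883, 21.8% of genes called). In the small intestine the submucosal libraries ran from 11.9 to 85.9 CPM with a median of 29.4 CPM and the myenteric from 28.8 to 78.1 CPM with a median of 45.6 CPM, and the difference did not pass (-0.37 ± 0.39, adjusted p = 0.474, 43.5% of genes called). The submucosal plexus of the colon was thus the untreated group with the highest Serpina3n mean. It exceeded that of the small intestine by 1.69 ± 0.41 (adjusted p = 0.0176, 5.18% of genes called), again by more than the spread, since the highest small-intestinal library was at 85.9 CPM and the lowest colonic one at 89.0 CPM (no overlap, as for 3.38% of genes). That call was lost without colonic submucosal replicate 2, at 151 CPM (adjusted p = 0.0527). Between the myenteric plexuses of the 2 regions no tested member was called (3.19% of genes called).

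Serpina3g was higher in the submucosal plexus of both regions. In the small intestine it ran from 34.5 to 116 CPM (median 72.8 CPM) against 0 to 12.5 CPM (median 2.21 CPM) in the myenteric plexus, a difference of 4.18 ± 0.88 (adjusted p = 0.000631), or 5.09 without myenteric replicate 1 (adjusted p = 0.000265). In the colon it stood at 122, 12.3, 67.1, 76.3 and 49.6 CPM against 11.3, 3.63, 0.219, 5.24 and 11.0 CPM (3.38 ± 0.92, adjusted p = 0.0121). The groups did not overlap in either region, as for 13.4% and 5.46% of genes. For Serpina3f the submucosal means were 22.8 ± 11.7 CPM in the colon and 13.6 ± 11.0 CPM in the small intestine, against 4.03 ± 5.26 and 3.55 ± 5.52 CPM in the myenteric plexus. These differences did not pass (2.53 ± 1.27, adjusted p = 0.159, a difference of 3.25 or 3.12 without myenteric replicate 2 or 5, and 1.90 ± 1.13, adjusted p = 0.181), although the second did without myenteric replicate 3, at 14.1 CPM (3.15, adjusted p = 0.0432). Serpina3i and Serpina3m averaged at most 1.38 CPM in any untreated group and were not tested. As a mean over libraries, Serpina3n made up 29.7% of the members' counts in the submucosal plexus of the small intestine and 88.5% in its myenteric plexus.

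Markers of other cells moved with the plexus. The median summed level of 6 macrophage markers was 139 CPM in the myenteric and 1806 CPM in the submucosal plexus of the colon, and 515 and 4212 CPM in the small intestine. For 5 markers of T and NK cells it was 0 and 119 CPM in the colon and 0.423 and 278 CPM in the small intestine, and all 5 were called higher in the submucosal plexus of both regions, as were 10.7% of genes (colon) and 22.3% (small intestine). The 4 epithelial markers had medians of 33.1 and 3702 CPM in the colon and 16.2 and 1978 CPM in the small intestine, while all 6 glial markers were called lower in the submucosal plexus of the small intestine (21.2% of genes) and 3 of 6 in that of the colon (11.1%). The part of these cells in the Serpina3 levels was not tested.

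**Figure D5:**
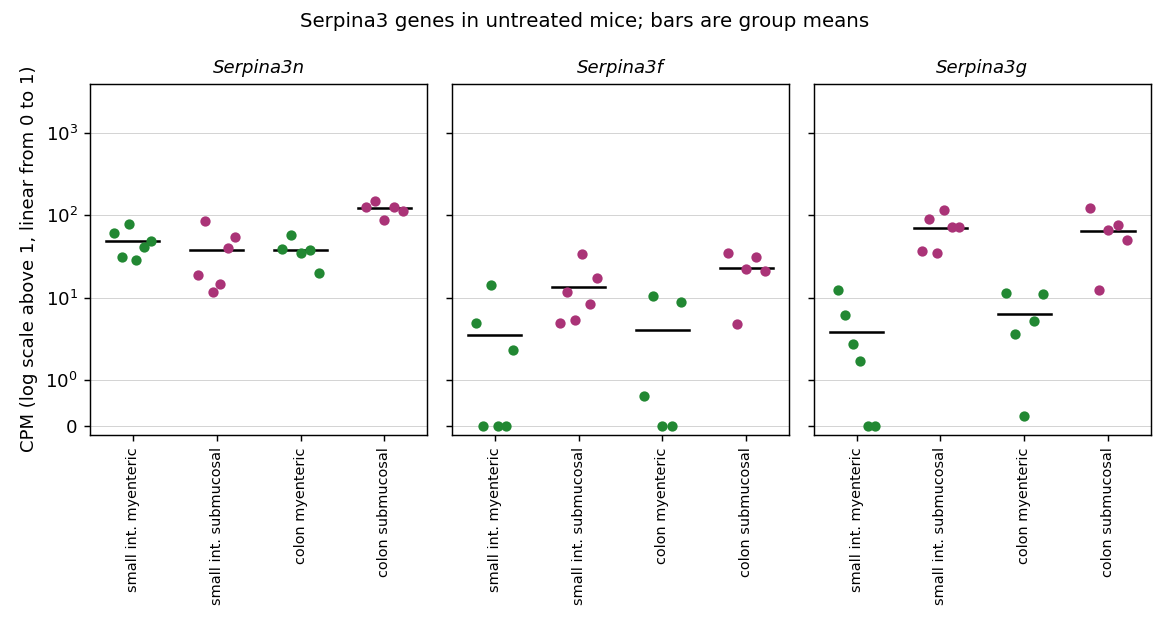
Level of Serpina3n, Serpina3f and Serpina3g in each untreated library, as CPM on an axis that is logarithmic above 1 and linear from 0 to 1. Green points are myenteric and purple points submucosal libraries, and bars are group means; colonic submucosal Serpina3n, at 89.0 to 151 CPM, lies above the other 3 groups, and submucosal Serpina3g, at 12.3 to 122 CPM, above or next to the myenteric libraries, at 0 to 12.5 CPM.

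Across all 16 groups the order of Serpina3n levels fell into 2 blocks. The 4 LPS groups at 24 h came first: knockout colon at 1460 ± 466 CPM, wild-type small intestine at 1231 ± 385 CPM, wild-type colon at 1145 ± 686 CPM and knockout small intestine at 977 ± 347 CPM, with neighbours apart by less than their SD. The next was the untreated colonic submucosal plexus at 122 ± 22.9 CPM. Below it the other 11 groups ran from 93.9 ± 108 CPM in wild-type colon after PBS to 36.2 ± 23.1 CPM in wild-type small intestine after PBS, each neighbour within the spread of the next. Levels of the 3 experiments were scaled separately and were not tested against each other.

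Members were also compared with one another over the 37 libraries at 24 h, as deviations of log2 CPM from the group means. These correlations are descriptions over libraries that share mice and depth. Serpina3n and Serpina3m, at the same end of the cluster, had the highest Pearson's r of any pair (0.75), followed by Serpina3f and Serpina3i (0.57) and by Serpina3i and Serpina3m (0.51). Serpina3n and Serpina3f had an r of 0.24, and Serpina3f and Serpina3g of -0.07. Among 10551 genes whose average log2 CPM reached 3, the 5 most like Serpina3n were Serpina3m itself, Saa3 (r = 0.59), which encodes an acute-phase serum amyloid A, Ubd (0.55), Ptx3 (0.54), a pentraxin of the acute phase, and Aldh1a3 (0.53). Those most like Serpina3f were Zfp428 (0.62), Csf3 (0.61), the neutrophil growth factor G-CSF, Prim2 (0.61), Ubd (0.61) and the metallothionein Mt2 (0.60). Ubd, a ubiquitin-like protein induced by cytokines, was on both lists.

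Genes of the pathways known to act on these serpins were counted from lists drawn up with the members. Of the IL-6 and STAT3 axis, 6 of 18 tested genes were called higher at 2 h in the small intestine and 5 of 18 in the colon, none lower, where 1.08% and 0.74% of all genes tested were called higher, with a median difference over the list of 2.59 and 1.74 (log2), beside -0.02 and -0.00 over all genes. The largest at 2 h in the small intestine were Il6 (6.66 ± 0.71), Lcn2 (4.97 ± 1.03), Bcl3 (4.38 ± 0.75) and Cebpb (3.89 ± 0.77). In the colon they included Bcl3 (4.68 ± 0.77), Cebpb (3.44 ± 0.75) and Socs3 (2.75 ± 0.56), the feedback inhibitor of STAT3 signalling, beside Il6, which had 3 counts in all PBS libraries. At 24 h, 7 of 20 genes of this axis were called higher in wild-type and 2 of 20 in knockout small intestine, and 5 of 20 in the colon of each genotype, with none lower. Of all genes tested, 4.18% were called higher in wild-type and 0.53% in knockout small intestine, and 3.96% and 0.637% in the colon.

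At 24 h Saa3 rose by 9.41 ± 1.61 and Lcn2, an iron-sequestering lipocalin, by 9.00 ± 1.12 in wild-type small intestine, followed by Hp (5.14 ± 1.31), the haptoglobin gene, and Cebpb (2.03 ± 0.62). In knockout small intestine Saa3 (9.06 ± 1.91) and Lcn2 (6.38 ± 1.19) were called. In wild-type colon Lcn2 (3.88 ± 1.05), Cebpb (2.39 ± 0.70), Bcl3 (1.84 ± 0.52) and Cebpd (1.59 ± 0.32) led, and in knockout colon Saa3 (8.09 ± 1.66), Hp (6.72 ± 1.52), Lcn2 (5.97 ± 1.07) and Cebpd (1.61 ± 0.31). The median over the list was 1.55, 0.96, 0.78 and 0.88 in wild-type small intestine, wild-type colon, knockout small intestine and knockout colon.

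Of the interferon-gamma axis, 5 and 4 of 16 tested genes were called higher at 2 h in small intestine and colon, led by Cxcl10 (6.83 ± 0.83 and 5.08 ± 0.77), a chemokine, and Gbp5 (4.94 ± 1.10 and 5.51 ± 1.14), a guanylate-binding protein. At 24 h the counts were 11 of 16 in wild-type small intestine, 8 of 16 in wild-type colon and 2 of 16 in each region of knockouts, none lower. The shares of all genes called higher were 4.18% and 3.96% in wild types and 0.53% and 0.637% in knockouts, in the same order of regions. Cxcl9 (5.62 ± 1.37) and Cxcl10 (5.26 ± 1.07) led in wild-type small intestine, Cxcl10 (4.68 ± 1.22) and Gbp2 (3.48 ± 0.55) in wild-type colon, Gbp2 (2.54 ± 0.53) and Gbp3 (1.79 ± 0.44) in knockout small intestine, and Gbp5 (3.28 ± 0.73) and Gbp2 (2.63 ± 0.50) in knockout colon. Whether the smaller counts in knockouts differ from those in wild types was not tested.

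Serpins outside the A clade were read from a list. Of its 13 tested members, none was called higher at 24 h in any of the 4 comparisons, which is close to the shares of all genes called higher (0.53% to 4.18%). In wild types 2 of 13 were called lower in the small intestine and 3 of 13 in the colon, beside 2.99% and 4% of all genes. Serpinh1, the collagen chaperone HSP47, fell by 2.33 ± 0.54 in wild-type small intestine and by 3.25 ± 0.54 in wild-type colon. Serpinb9, a granzyme B inhibitor, fell by 1.81 ± 0.51 and 1.65 ± 0.50, and Serpinf1 by 1.49 ± 0.41 in the colon. In these comparisons the median fibroblast sum was 7069 CPM after PBS and 3377 CPM after LPS in the small intestine and 17106 and 2900 CPM in the colon, and the part of those cells was not tested. None of 12 Serpina genes outside the Serpina3 cluster passed the filter on low counts at 24 h. Of 15 proteases that serpins of this family can bind, 12 were tested at 24 h, and Ctsb, the lysosomal protease cathepsin B, alone was called (0.94 ± 0.22, wild-type small intestine, where 7.17% of all genes were).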

How the data were processed

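Both tables hold raw read counts per gene, deposited by the authors with no normalization. The labels' protocols give RNeasy Plus Micro for RNA extraction and Smart-seq2 for amplification. Smart-seq2 has no molecular identifiers, so intervals and bounds cover the counting of reads only, not of molecules. The submitters' processing notes name Trim Galore 0.4.4, STAR 2.5.3, DESeq2 and GRCm38; the counter, annotation and strand setting are not given in the sources used here.

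Each experiment was fitted by itself, all its groups together, with edgeR 4.0.16 in R 4.3.3 (filterByExpr, TMM scaling, quasi-likelihood test), and p-values were adjusted by Benjamini-Hochberg over all genes tested, with a threshold of 0.05. The SE is the absolute log2 difference divided by the square root of F. CPM were computed from TMM-effective library sizes. Against a group with no count, folds are bounds against 3 counts over the group. Correlations used deviations of log2 CPM from group means, with a prior count of 2.

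The members and the gene lists were chosen with earlier results of these data known. Some genes of the lists are not reported here and were left out of their counts and sums. The text names the 6 members, up to the 4 called genes of each list with the largest difference, and the 5 genes most like Serpina3n and Serpina3f whose average log2 CPM reached 3. Tested on simulated data, the fit recovered 58% of genes changed by 4 on the log2 scale and 26% of those changed by 2 for 2 h colon (12708 genes), and 68% and 37% for 24 h wild-type colon (14686 genes).

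Alternatives were DESeq2 1.42.0, RLE scaling, no filter, other covariates, the compared groups alone, the replicate block, doubtful libraries left out and each replicate left out in turn. Same-numbered mice at 24 h gave both regions, which pairs those samples. Without treatment and at 2 h the sample descriptions share a sex and a number across groups, which the replicate block used. They name no animal.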

Additional observations from a re-analysis of the deposited data

Results flagged for a closer look

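In 72 sets of values, each 1 gene in 1 group of 4 to 6 libraries, 20 values stood far from the nearest other value of their group. They were judged by Dixon's 95% critical value, which is made for normally distributed values. The CPM here are skewed and often 0, so the number expected without any odd library is not known. A set with counts in 1 library alone always passes. In 9 of the 20 the next value was 0. The libraries are named here with their CPM, and no cause was tested.

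The colon library of mouse 14, wild type with PBS, was high in 4 members: Serpina3n at 256.1 CPM (next 50.3), Serpina3f at 11.0 (next 1.37), Serpina3i at 2.54 (next 0) and Serpina3m at 40.5 (next 0). The small-intestinal library of mouse 23, also wild type with PBS, was high in Serpina3n at 80.8 CPM (next 42.0), Serpina3g at 38.0 (next 3.22) and Serpina3m at 0.887 (next 0).

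Other PBS libraries at 24 h stood apart in 1 member each. Serpina3f was at 2.85 CPM in the colon of knockout mouse 15 and at 0.141 CPM in the small intestine of wild-type mouse 19, where all others of their groups were at 0. Serpina3m was at 7.03 CPM in the small intestine of knockout mouse 12 (next 0) and at 2.05 CPM in the colon of knockout mouse 20 (next 0.260). After LPS, Serpina3g was low in the colon of knockout mouse 2, at 1.34 CPM, with the next at 39.4 CPM.

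At 2 h, replicate 2 of the small-intestinal PBS group was high in Serpina3n at 156.0 CPM (next 43.5) and Serpina3f at 10.2 CPM (next 1.44). Serpina3i was at 4.20 CPM in replicate 1 of that group and at 7.39 CPM in replicate 3 of the colon LPS group, with the other libraries of each at 0. In the untreated small intestine, Serpina3f was at 14.1 CPM in myenteric replicate 3 (next 4.94) and Serpina3i at 3.08 CPM in myenteric replicate 1 (next 0). In its submucosal plexus Serpina3i was at 2.08 CPM in replicate 5 (next 0.584) and Serpina3m at 0.623 CPM in replicate 2 (next 0.189).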

How the results depend on the processing

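No difference reversed its direction past the threshold under any alternative run. DESeq2 with Benjamini-Hochberg adjustment called Serpina3g at 2 h in small intestine (4.50, adjusted p = 5.59e-05) and colon (3.77, adjusted p = 0.000661), which edgeR did not; the cause was not tested. With each replicate left out in turn, the LPS difference of Serpina3n ran from -0.03 to 1.05 (2 h small intestine), 0.16 to 1.01 (2 h colon), 4.92 to 5.55 and 4.03 to 4.57 (24 h wild-type and knockout small intestine), 3.29 to 4.89 and 4.05 to 4.44 (24 h wild-type and knockout colon). That of Serpina3g at 2 h ran from 4.08 to 5.19 and 3.36 to 4.17, and the genotype difference of Serpina3f after LPS from -3.16 to -2.48 in small intestine and -3.19 to -1.34 in colon. With a replicate block the 2 h LPS difference was 0.40 in both regions for Serpina3n, and 4.73 (adjusted p = 0.122) and 3.90 (adjusted p = 0.256) for Serpina3g; the block changed no member's call. Samples with the same sex and number had a mean correlation of 0.093 without treatment and 0.060 at 2 h, against -0.017 and -0.019 for others. No animal is named there, so whether such samples come from the same mouse cannot be told. LPS and PBS groups at 24 h share no mouse and were not paired. Counts of genes called moved by over 1.5 times: with DESeq2 from 144 to 280 and 102 to 298 at 2 h (small intestine, colon), from 1069 to 1894, 1186 to 2306, 107 to 535 and 107 to 496 at 24 h (wild-type small intestine and colon, knockout small intestine and colon), and from 2 to 181 and 64 to 761 between genotypes after LPS (small intestine, colon). With the compared groups alone the 24 h counts were 1704, 412, 47 and 7, that of 2 h colon 63, and both genotype counts 0. Without the 4 low-Gpr37 libraries, an alternative chosen after seeing the data like that without mouse 3, wild-type colon had 373 and the colon genotype comparison 0. Without mouse 3 the genotype comparisons had 1 (small intestine) and 14 (colon) and that of regions in wild types after LPS 5. Within mice numbered 11 and above the genotype counts after LPS were 23 and 334 and that of the colon interaction 25; with the division as a covariate the colon genotype count was 40, without a filter on low counts 14, and with RLE scaling the small-intestinal one was 1. Between regions at 24 h, counts went from 21 to 6 (wild type, PBS), from 39 to 19 (wild type, LPS) and from 11 to 4 (knockout, LPS) with the mouse as a block, and to 183, 697 and 329 with DESeq2. Within mice numbered 11 and above they were 253, 23 and 53, and with the compared groups alone 352, 0 and 0; the division as a covariate gave 113 (wild type, LPS) and 17 (knockout, LPS). Without treatment, regions in the myenteric plexus went from 449 to 246 with the replicate block and to 1035 with DESeq2, those in the submucosal plexus from 730 to 1164 with DESeq2, and plexuses of the colon from 3069 to 1902 with the compared groups alone. DESeq2 also called Serpina3m in knockout colon after LPS (7.00, adjusted p = 0.0424) and Serpina3f between regions after PBS in wild types (6.35, adjusted p = 0.0156).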
